A study of Mus musculus with 12 samples.

Results

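The genes described here carry glucose from the blood to lactate or to the mitochondrion. They were chosen by name: 32 gene symbols for glucose and lactate transporters, the enzymes of glycolysis with their isozymes, the enzymes that set fructose 2,6-bisphosphate, lactate dehydrogenase, the pyruvate dehydrogenase complex and its kinases. The choice was made with earlier results of these data known. All 32 were found among the 30630 genes listed, in 33 rows, because Aldoa has a second row under an identifier of its own. RNA was sequenced from 12 subcutaneous tumors grown from CT-26, a colon carcinoma cell line of the mouse, to ask how swimming changes gene expression in the tumor. There were 6 tumors of a control group and 6 of a swimming group, each from a different male BALB/c mouse that was 4 to 6 weeks old on purchase. Both groups received the same cells in Matrigel in the right flank, and no gene was altered in either group. Mice of the swimming group swam 2 times daily on 6 days of each week, for up to 30 min, over the 3 weeks of the experiment, whereas control mice did not swim. The tumors were sequenced whole, so tumor cells, immune cells, vessels and adjacent tissue all contributed RNA, and fewer cells of a type cannot be told apart from less RNA per cell.

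Glycolysis splits glucose into pyruvate in the cytosol and yields ATP without oxygen. Many tumors take up much glucose and release much of it as lactate even where oxygen is present, and lactate dehydrogenase regenerates the NAD+ that the pathway needs. HIF-1, the transcription factor that accumulates when oxygen is low, binds upstream of many of these genes, and it also induces Pdk1, whose product switches off pyruvate dehydrogenase and so keeps pyruvate out of the citric acid cycle.

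Values are FPKM, which are fragments scaled by gene length and by sequencing depth, as the authors deposited them. Because FPKM is per length, levels of different genes can be set side by side. Between 22293 and 23974 genes were above 0 per tumor, the summed FPKM was 380139 to 407109, and the read number is unknown. Relative depth, estimated from the steps between the lowest values, was 0.697 in control 2 and 0.871 to 1 in the other tumors. Of the epithelial markers, the keratins Krt20 (99.8 to 194 FPKM), Krt18 (5.89 to 14.8 FPKM) and Krt8 (1.86 to 129 FPKM) were read in every tumor. The others were low: Krt19 (0 to 0.757 FPKM), a keratin too, and Cdh1 (0.120 to 0.430 FPKM). Epcam, Cdx2 and Vil1 did not exceed 0.177, 0.341 and 0.0908 FPKM. Markers of other tissues differed widely between tumors, among them fibroblast (205 to 826 FPKM) and erythroid (152 to 1239 FPKM) sums. Fibroblast and endothelial sums were highest in control 1 (826 and 58.0 FPKM) and swimming 5 (793 and 52.1 FPKM). Skeletal muscle markers summed to 3.68 to 256 FPKM in control tumors and 2.63 to 360 FPKM in swimming tumors. Adipocyte markers summed to 183 FPKM in control 1, 45.2 FPKM in swimming 5 and at most 18.9 FPKM in the other tumors.

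Differences are given on the scale of log2(FPKM + 1), swimming minus control, with the standard error (SE) of limma's fit over the 19018 genes that reached 0.1 FPKM in at least 6 tumors. All 33 rows passed this filter. The added 1 makes the difference smaller for weakly expressed genes. Of the 33 rows, 27 (81.8%) had a higher mean on this scale in the swimming group, compared with 51.7% of all genes tested. The median difference over the 33 rows was 0.15, whereas it was 0.00 over all genes tested. At an unadjusted p below 0.05, 5 of the 33 rows (15.2%) were higher in the swimming group, against a background of 3.11% of all genes, and 0 were lower, against 2.46%. The 5 genes are Hk1, Pfkl, Pfkfb3, Aldoc and Eno1. After Benjamini-Hochberg adjustment in limma, 0 of the 33 rows and 0 of the 19018 genes (0.0%) had an adjusted p below 0.05, while 1058 genes (5.56%) had an unadjusted p below 0.05. The smallest adjusted p was 0.889 among the 33 rows and 0.204 among all genes. The 2 groups overlapped for each of the 33 rows, whereas 0.147% of all genes had groups that did not overlap. Each tumor came from a different mouse, and p-values set the difference of the groups against the spread between these tumors. In limma, the spread of each gene is moderated by that of all genes tested. Many of the 33 rows moved together across tumors, so the counts of rows are not counts of independent results.

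**Figure D1:**
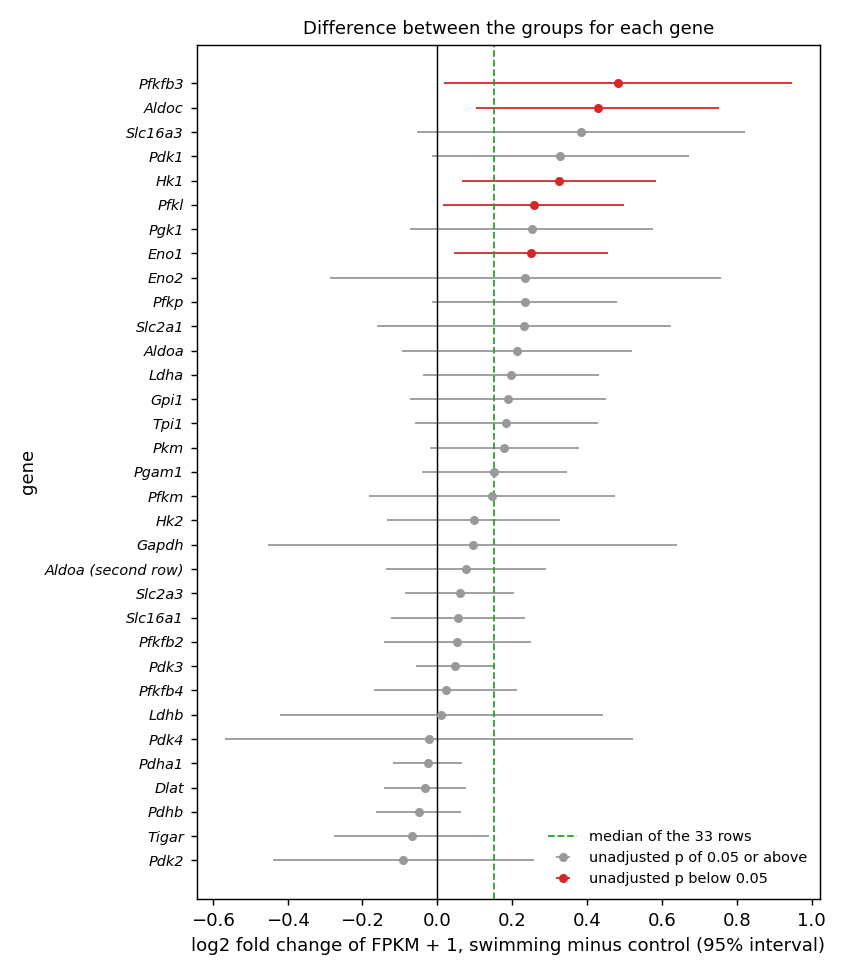
Difference of the mean log2(FPKM + 1) between swimming and control tumors for each of the 33 rows, with its 95% interval from limma. Red points are the 5 genes at an unadjusted p below 0.05, and the dashed line is the median of the rows, 0.15, which lies above the 0 line.

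The number of genes called depended on 2 tumors. In a score over the 13 genes of the main route from glucose uptake to lactate export, control 1 was the highest control tumor and swimming 5 the lowest swimming tumor. Without control 1, 12 rows (36.4%) were higher at an unadjusted p below 0.05, against a background of 3.70%, and without swimming 5 there were 11 (33.3%), against 2.31%. With both left out there were 16 (48.5%), against 2.76%. Since both lie on the other group's side in that score, leaving them out widens the difference by construction. In contrast, 3 rows were left after leaving out control 5, control 6, swimming 3, swimming 4 or swimming 6. The share of all genes was not counted in those fits. The adjusted p stayed above 0.05 for each of the 33 rows in each of these cases.

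The 5 genes with the smallest p, Pgk1 and Ldha, which followed the pathway most closely across tumors, and Dlat, a steady gene of pyruvate dehydrogenase, are shown by the 250 bases before their transcription start in RefSeq (GRCm38.p6). Capitals mark ACGTG, the core that HIF-1 binds, or GCGTG, its variant, on either strand. Where a gene has several starts, the window with the most matches is shown.
Hk1: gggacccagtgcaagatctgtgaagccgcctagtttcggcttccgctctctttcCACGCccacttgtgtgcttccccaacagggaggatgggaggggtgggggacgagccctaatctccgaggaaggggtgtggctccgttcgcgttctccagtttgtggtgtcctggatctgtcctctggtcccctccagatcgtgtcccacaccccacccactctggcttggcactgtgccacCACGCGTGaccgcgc
Pfkl: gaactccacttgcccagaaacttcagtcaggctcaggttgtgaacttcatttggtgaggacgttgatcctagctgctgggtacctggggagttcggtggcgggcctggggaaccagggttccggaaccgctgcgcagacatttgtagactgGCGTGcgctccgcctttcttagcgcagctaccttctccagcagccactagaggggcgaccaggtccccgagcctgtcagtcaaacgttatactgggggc
Pfkfb3: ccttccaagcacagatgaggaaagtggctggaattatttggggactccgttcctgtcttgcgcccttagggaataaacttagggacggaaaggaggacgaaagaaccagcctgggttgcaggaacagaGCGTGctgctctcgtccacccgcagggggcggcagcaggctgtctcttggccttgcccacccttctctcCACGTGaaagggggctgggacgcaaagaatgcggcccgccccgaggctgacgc
Aldoc: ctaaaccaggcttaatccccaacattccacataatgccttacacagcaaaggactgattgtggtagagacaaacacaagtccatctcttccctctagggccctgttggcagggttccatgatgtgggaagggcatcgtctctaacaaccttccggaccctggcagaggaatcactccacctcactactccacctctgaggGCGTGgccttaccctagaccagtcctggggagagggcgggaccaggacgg
Eno1: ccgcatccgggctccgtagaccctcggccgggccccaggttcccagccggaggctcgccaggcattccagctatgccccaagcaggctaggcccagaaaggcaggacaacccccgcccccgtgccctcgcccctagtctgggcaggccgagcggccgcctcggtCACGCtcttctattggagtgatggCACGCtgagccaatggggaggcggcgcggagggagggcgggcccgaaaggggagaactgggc
Pgk1: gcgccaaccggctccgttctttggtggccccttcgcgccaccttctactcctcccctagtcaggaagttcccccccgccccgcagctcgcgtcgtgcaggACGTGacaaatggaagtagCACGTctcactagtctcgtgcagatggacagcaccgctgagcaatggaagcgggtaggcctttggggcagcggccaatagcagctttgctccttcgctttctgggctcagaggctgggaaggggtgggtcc
Ldha: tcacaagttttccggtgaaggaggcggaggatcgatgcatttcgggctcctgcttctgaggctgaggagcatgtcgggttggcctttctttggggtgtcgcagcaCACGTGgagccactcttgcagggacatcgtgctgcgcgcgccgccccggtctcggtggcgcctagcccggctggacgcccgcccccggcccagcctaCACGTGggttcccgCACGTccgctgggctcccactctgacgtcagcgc
Dlat: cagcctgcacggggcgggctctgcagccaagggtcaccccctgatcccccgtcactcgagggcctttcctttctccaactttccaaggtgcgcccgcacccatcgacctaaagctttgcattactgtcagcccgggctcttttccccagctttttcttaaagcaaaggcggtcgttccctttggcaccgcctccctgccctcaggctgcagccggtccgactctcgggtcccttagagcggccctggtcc

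The windows are chr10:62340422-62340671 (minus strand) for Hk1, chr10:78009808-78010057 (minus) for Pfkl, chr2:11502091-11502340 (minus) for Pfkfb3 and chr11:78322823-78323072 (plus) for Aldoc. Those of Eno1, Pgk1 and Ldha are chr4:150236947-150237196, chrX:106186850-106187099 and chr7:46845554-46845803, all on the plus strand, and that of Dlat is chr9:50659781-50660030 on the minus strand. CACGTG, to which MYC also binds, holds a match on both strands and counts as 2, so Ldha has 5 matches and Pfkfb3 has 3. Hk1 has 3 matches, Eno1 and Pgk1 have 2 each, Pfkl and Aldoc have 1 each and Dlat has 0. Matches did not separate steady genes from those of the route. The steady genes Pdha1, Pdhb and Pdk3, not shown, have 3, 2 and 4 matches. Gpi1, Tpi1 and Eno2, which moved with the main route across tumors, have 0 each. RefSeq windows were found for 31 of the 32 symbols. At least 1 match was present in 36 of their 47 windows (76.6%), in 52.7% of the windows of genes tested and in 38.6% of all windows of that length. Counted by gene, 26 of 31 symbols (83.9%) and 58.2% of the genes tested had a match. The median GC content was 61.6% in the windows of the pathway and 58.8% in those of genes tested. A match gives the letters only and does not show that a factor binds there.

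Along the main route, taken as 1 gene for each step from uptake to export, each of the 13 genes had a higher mean in the swimming group. These genes moved together across tumors (median Pearson r over pairs 0.78), so they are not 13 independent results. The median difference was 0.20, and 2 of the 13 (Pfkl and Eno1) were higher at an unadjusted p below 0.05, against 3.11% of all genes. The count was 8 without control 1, 6 without swimming 5, 11 without both and 1 with copies summed. Leaving out 1 tumor moved the difference by over 1.5 times for Slc2a1 (0.15 without swimming 6 and 0.38 without swimming 5), Hk2 (0.05 without control 2 and 0.16 without swimming 5), Gpi1, Pgk1 and Pgam1 (0.12, 0.17 and 0.09 without swimming 3), and for Aldoa and Slc16a3. Among the enzymes, levels were lowest at the entrance. Hk1, Hk2 and Pfkl had means of 16.1 to 32.8 FPKM, Gpi1 121 FPKM and the enzymes from Aldoa to Ldha 242 to 562 FPKM, with the row of Gapdh as an exception. These are levels of single rows. Eno1 summed with its near-identical copies was 1172 FPKM in control tumors and 1324 FPKM in swimming tumors. The order Pgk1 above Ldha and Pkm above Tpi1 held in 12 of 12 tumors, whereas Ldha was above Pkm in 5 of 12, so these neighbours did not differ beyond their spread.

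**Figure D2:**
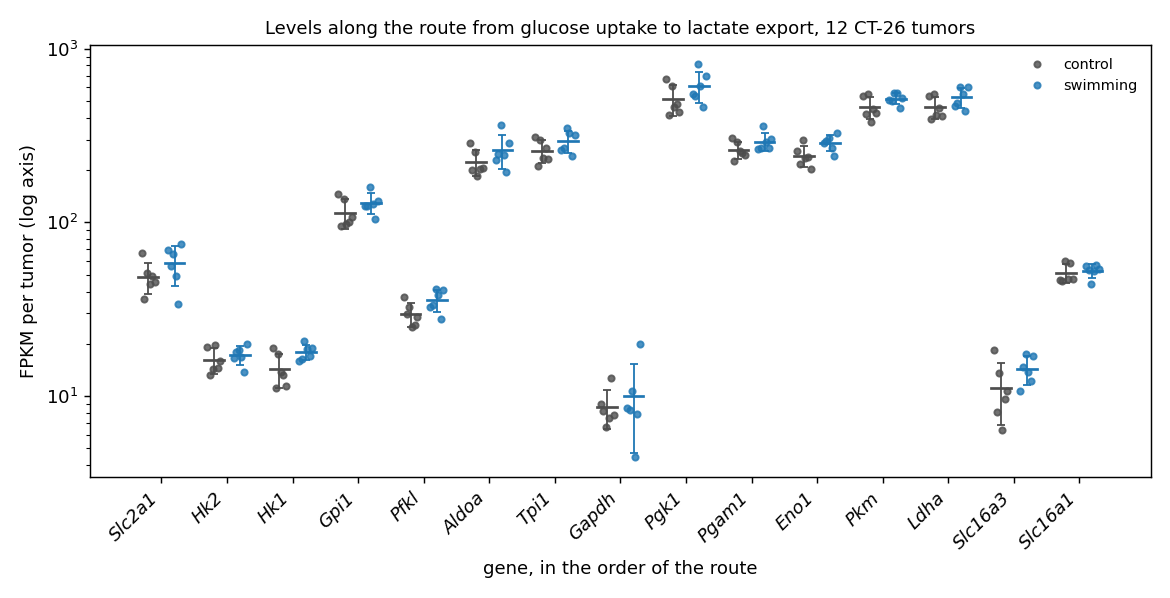
FPKM of each tumor on a log axis for genes in the order of the route from glucose uptake to lactate export, with the mean and SD of the 6 control (grey) and 6 swimming (blue) tumors. Aldoa to Ldha lie above the entry steps and the lactate transporters, the groups overlap at each step, and the row of Gapdh lies at 4.47 to 20.1 FPKM between neighbours above 100 FPKM.

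Glucose enters through Slc2a1 (GLUT1), the widespread transporter, and Slc2a3 (GLUT3), a transporter of high affinity. Slc2a1 was 36.3, 47.2 and 66.2 FPKM at the lowest, median and highest control tumor and 33.8, 61.0 and 75.2 FPKM in the swimming group. Its lowest value of all was in swimming 5 and its highest control value in control 1, and 5 of 6 swimming tumors were above the control median. The difference was 0.23 (SE 0.18, two-sided exact permutation p = 0.266). Slc2a3 had only 0.388 to 0.739 FPKM and a difference of 0.06 (SE 0.07), and Slc2a1 was at least 45.7 times as high in each tumor.

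Hexokinase traps glucose in the cell as glucose 6-phosphate. Hk1 (chr10:62268855-62379908), the isozyme found in most tissues, was 11.2, 13.5 and 18.9 FPKM at the lowest, median and highest control tumor and 16.0, 17.9 and 20.8 FPKM in the swimming group. All 6 swimming tumors were above the control median, but control 1 and control 3 lay among them. The mean was 14.3 ± 3.17 FPKM (SD, n = 6) in control tumors and 18.0 ± 1.83 FPKM in swimming tumors, a difference of 0.33 (SE 0.12, unadjusted p = 0.0179, two-sided exact permutation p = 0.0411). It kept an unadjusted p below 0.05 without any 1 of the 12 tumors. Hk2, the isozyme that many tumors gain, was 13.2, 15.2 and 19.7 FPKM in control tumors and 13.7, 17.3 and 20.04 FPKM in swimming tumors. The groups of Hk2 covered nearly the same range, with a difference of 0.10 (SE 0.11, exact permutation p = 0.405). Hk2 exceeded Hk1 in 5 of 6 control tumors and in 3 of 6 swimming tumors. The share of Hk2 in the sum of both was 53.1% ± 5.14 (SD, n = 6) and 48.9% ± 3.04 (exact permutation p = 0.123).

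Gpi1 turns glucose 6-phosphate into fructose 6-phosphate. It was 94.9, 104 and 146 FPKM in control tumors and 105, 126 and 161 FPKM in swimming tumors at the lowest, median and highest tumor. All 6 swimming tumors were above the control median, and the difference was 0.19 (SE 0.12, exact permutation p = 0.175).

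Phosphofructokinase commits the sugar to glycolysis and exists in liver (Pfkl), muscle (Pfkm) and platelet (Pfkp) types. Pfkl (chr10:77986947-78010083) was 24.9, 29.0 and 37.3 FPKM in control tumors and 28.0, 35.8 and 41.6 FPKM in swimming tumors. The highest control value was that of control 1 and the lowest swimming value that of swimming 5. The mean was 29.7 ± 4.596 FPKM and 35.8 ± 5.31 FPKM, with a difference of 0.26 (SE 0.11, unadjusted p = 0.0382, exact permutation p = 0.0693), and in 7 of the 12 cases with a tumor left out the unadjusted p was above 0.05. Pfkl exceeded Pfkm and Pfkm exceeded Pfkp in 12 of 12 tumors. Pfkm, with 9.24 to 18.7 FPKM, differed by 0.15 (SE 0.15, exact permutation p = 0.411), or by 0.05 without control 5 and 0.24 without swimming 6, and Pfkp, with 3.97 to 7.24 FPKM, by 0.23 (SE 0.11, exact permutation p = 0.0844). Shares of the 3 types were compared. Pfkl made up 62.1% ± 2.70 of the sum in control tumors and 63.1% ± 5.46 in swimming tumors (SD, n = 6 each, exact permutation p = 0.682), Pfkm 28.0% and 26.8%, and Pfkp 9.90% and 10.1%.

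The bifunctional enzymes Pfkfb2, Pfkfb3 and Pfkfb4 make and remove fructose 2,6-bisphosphate, the activator of phosphofructokinase. Pfkfb3 (chr2:11471433-11554077), the form with the strongest kinase activity, was 0.872, 2.34 and 3.68 FPKM at the lowest, median and highest control tumor and 2.41, 3.73 and 4.23 FPKM in the swimming group. All 6 swimming tumors were above the control median, and the lowest values of all were those of control 5 and control 6. Its mean was 2.39 ± 1.15 FPKM and 3.55 ± 0.764 FPKM, a difference of 0.48 (SE 0.21, unadjusted p = 0.0425, exact permutation p = 0.0693). The unadjusted p was above 0.05 in 7 of the 12 cases with a tumor left out, and it was 0.0562 with the skeletal muscle score as a covariate. Pfkfb2 (1.08 to 1.77 FPKM) and Pfkfb4 (2.08 to 3.33 FPKM) differed by 0.05 and 0.02, each less than its SE. Within the sum of the 3 genes, the share of Pfkfb3 was 35.4% ± 11.3 and 45.7% ± 7.99 (exact permutation p = 0.0952), and that of Pfkfb4 was 42.8% ± 5.99 and 35.6% ± 5.09 (exact permutation p = 0.0519). Tigar, which removes fructose 2,6-bisphosphate and so slows glycolysis, had 3.94 to 6.44 FPKM and a difference of -0.07 (SE 0.10).

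Aldolase cleaves the 6-carbon sugar. Aldoa, the muscle and tumor form, was 185, 205 and 286 FPKM in control tumors and 195, 245 and 362 FPKM in swimming tumors, and the difference was 0.21 (SE 0.14, exact permutation p = 0.206), or 0.11 without swimming 3. The second row of Aldoa, just upstream on the same strand, had 3.14 to 4.94 FPKM and a difference of 0.08 (SE 0.10). Aldoc (chr11:78322968-78327781), the form best known from brain, was 0.640, 1.03 and 1.48 FPKM at the lowest, median and highest control tumor and 0.946, 1.75 and 2.34 FPKM in the swimming group. Swimming 1 lay below the control median, whereas swimming 2, 3, 4 and 6 were above each control tumor. The mean was 1.01 ± 0.347 FPKM and 1.73 ± 0.561 FPKM, with a difference of 0.43 (SE 0.15, unadjusted p = 0.0135, exact permutation p = 0.0325), and the unadjusted p stayed below 0.05 without any 1 of the 12 tumors. With a pseudocount of 0.1 in place of 1, the difference was 0.71 (unadjusted p in limma 0.0145). Aldoc remained the rare form. Its share of the aldolase sum was 0.447% ± 0.114 in control tumors and 0.652% ± 0.132 in swimming tumors (SD, n = 6, two-sided exact permutation p = 0.0238). Of the 13 isozyme shares compared, it alone had an exact p below 0.05, and its adjusted p over the 13 shares was 0.310.

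**Figure D3:**
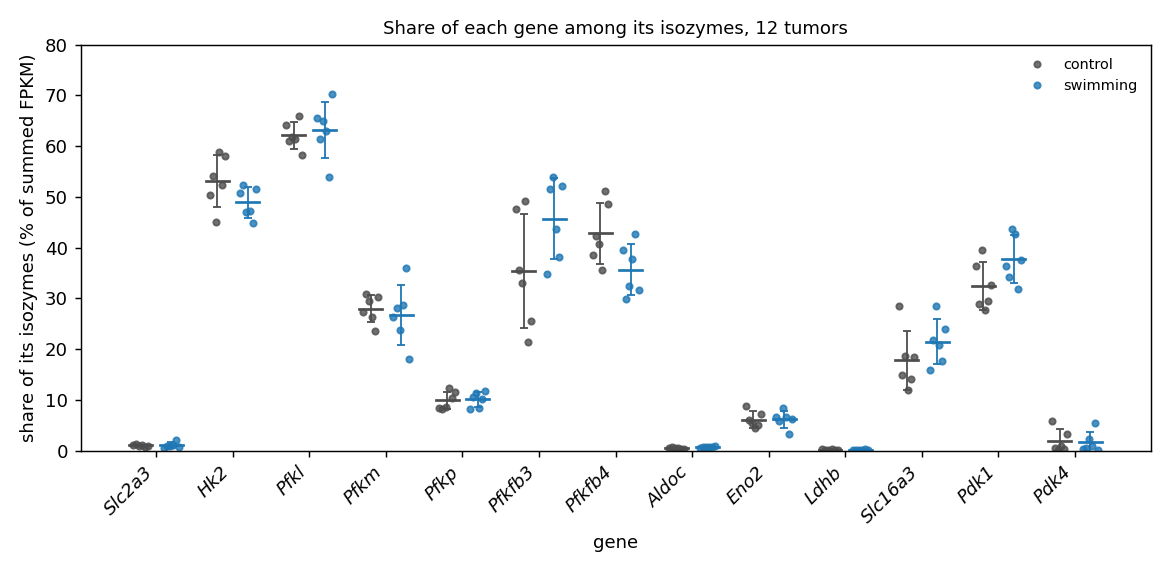
Share of each gene in the summed FPKM of its isozymes, in percent, for each of the 12 tumors, with the mean and SD of each group. Only isozymes among the 32 symbols entered the sums, so Hk3 and Eno3, for example, did not. Pfkl holds 53.9% to 70.2% of phosphofructokinase, and the groups overlap for each share.

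Tpi1 interconverts the 3-carbon sugars. It was 212, 251 and 308 FPKM in control tumors and 242, 293 and 351 FPKM in swimming tumors, and the difference was 0.18 (SE 0.11, exact permutation p = 0.162). Gapdh, which makes NADH and is often taken as a reference gene, had a row of 6.67, 7.98 and 12.8 FPKM in control tumors and 4.47, 8.47 and 20.1 FPKM in swimming tumors, a level far below those of its neighbours. Its difference was 0.09 (SE 0.25, exact permutation p = 0.764) and turned to -0.12 without swimming 6.

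The row of Gapdh did not hold most of the FPKM of such sequence. A search of its transcripts against the GENCODE M21 annotation found 91 other listed genes with at least 95% identity over at least 200 bases. Nearly all the FPKM lay in them, 25 of which had a mean of at least 1 FPKM. The highest was the processed pseudogene Gm13394 with a mean of 893 FPKM, identical over 99.9% of 1000 aligned bases. The copies summed to a mean of 2885 FPKM, and the row of Gapdh held 0.323% of the total (0.137% to 0.610% by tumor). Gapdh with its copies was 2712 ± 467 FPKM in control tumors and 3077 ± 401 FPKM in swimming tumors, with a difference of 0.19 (SE 0.12, exact permutation p = 0.147). That sum of FPKM was above the level of each neighbour in the route. The coefficient of variation over the 12 tumors was 42.2% for the row alone and 15.8% for the sum. How the authors' quantification divided reads between a gene and its copies is unknown, as is whether a read was counted more than once. Levels of single rows and of sums are therefore uncertain for such genes.

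Pgk1 makes the first ATP of the pathway. It was 416, 470 and 673 FPKM at the lowest, median and highest control tumor and 464, 579 and 813 FPKM in the swimming group. Control 1 and control 3 were above 4 of the 6 swimming tumors, and the difference was 0.25 (SE 0.15, exact permutation p = 0.147). Pgam1, which moves the phosphate group, had 226, 254 and 305 FPKM in control tumors and 265, 279 and 358 FPKM in swimming tumors, a difference of 0.15 (SE 0.09, exact permutation p = 0.136).

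Enolase forms phosphoenolpyruvate. Eno1 (chr4:150236721-150248879), the form of most tissues, was 203, 236 and 299 FPKM in control tumors and 241, 291 and 326 FPKM in swimming tumors. All 6 swimming tumors were above the control median, and control 3 was above 4 of them. The mean was 242 ± 33.6 FPKM and 287 ± 30.02 FPKM, with a difference of 0.25 (SE 0.09, unadjusted p = 0.0203, exact permutation p = 0.0346). Without control 6 the unadjusted p was 0.0507. Eno1 too has close copies: its row held 21.2% of the sum with 4 other genes, mainly the pseudogene Gm4735 (559 FPKM) and Eno1b (415 FPKM). Their sum was 1172 ± 147 FPKM and 1324 ± 146 FPKM, a difference of 0.18 (SE 0.10, unadjusted p = 0.0944, exact permutation p = 0.106). With copies summed for each gene that has them, 4 rather than 5 rows were higher at an unadjusted p below 0.05, against a background of 3.10%. Of the 10 rows with a copy elsewhere, the other 8 held 86.7% to 99.99% of their sum. The neuronal form, Eno2, differed by 0.24 (SE 0.24), or by 0.12 without swimming 3 and 0.44 without swimming 5. It was 11.0, 14.9 and 24.6 FPKM in control tumors and 8.36, 19.6 and 27.8 FPKM in swimming tumors, and its share of Eno1 and Eno2 was 6.12% ± 1.59 and 6.15% ± 1.61 (SD, n = 6, exact permutation p = 0.976). That share uses the row of Eno1 alone and would be lower against Eno1 with its copies.

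**Figure D4:**
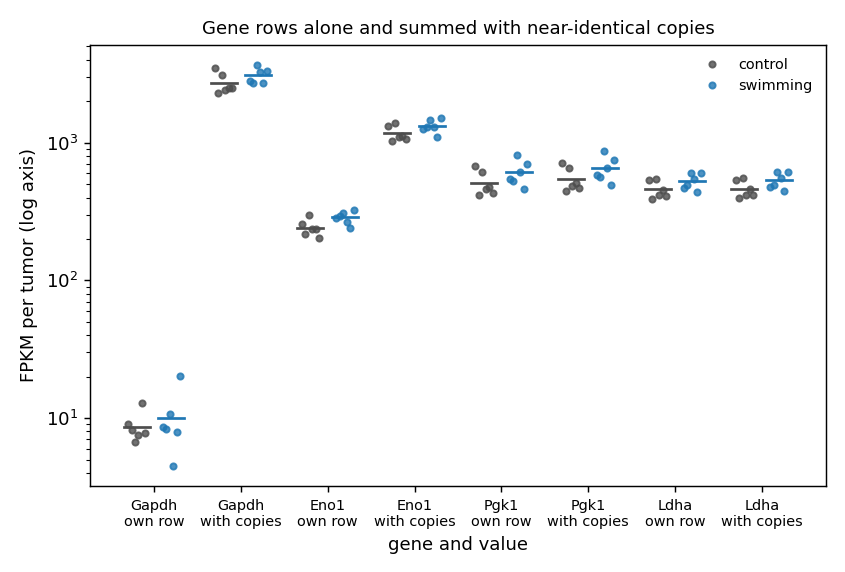
FPKM by tumor on a log axis for 4 genes, from the row of the gene alone and summed with near-identical copies, with the mean of each group as a line. Gapdh lies at 4.47 to 20.1 FPKM alone and at 2305 to 3685 FPKM with its copies, Eno1 also lies higher with them, and Pgk1 and Ldha differ little.

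Pyruvate kinase (Pkm) makes pyruvate and the last ATP. Its row pools the M1 and M2 forms, which come from the same gene. Pkm was 378, 438 and 547 FPKM in control tumors and 458, 515 and 555 FPKM in swimming tumors, all 6 of the latter above the control median. The difference was 0.18 (SE 0.09, exact permutation p = 0.0931). Its unadjusted p in limma was 0.0737, and the highest among the alternatives was 0.0937 with trimmed mean scaling. It was 0.0150 without both control 1 and swimming 5. Those tumors were chosen after seeing the data, and leaving them out widens the difference by construction.

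Ldha, which turns pyruvate into lactate, was 392, 436 and 549 FPKM in control tumors and 437, 520 and 605 FPKM in swimming tumors. All 6 swimming tumors were above the control median, with control 1 and control 3 among them, and the difference was 0.20 (SE 0.11, exact permutation p = 0.123). Ldhb, the form that favours the reverse reaction, had only 0.129 to 1.82 FPKM and a difference of 0.01 (SE 0.20). Ldha was 292 to 4664 times as high as Ldhb, and the share of Ldhb was 0.154% ± 0.105 and 0.143% ± 0.0818 (SD, n = 6, exact permutation p = 0.840).

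Lactate leaves the cell through Slc16a3 (MCT4), the exporter of glycolytic cells, and passes in either direction through Slc16a1 (MCT1). Slc16a3 was 6.40, 10.2 and 18.5 FPKM at the lowest, median and highest control tumor and 10.7, 14.3 and 17.5 FPKM in the swimming group. The highest value of all was that of control 1, while no other control tumor exceeded 13.6 FPKM. The difference was 0.39 (SE 0.20, exact permutation p = 0.119), and with a tumor left out it ranged from 0.26 (limma unadjusted p = 0.189) without control 4 to 0.54 (p = 0.00797) without control 1. Slc16a1 had higher levels, 46.2, 47.2 and 59.8 FPKM in control tumors and 44.0, 53.6 and 56.9 FPKM in swimming tumors, and a difference of 0.06 (SE 0.08). Slc16a1 exceeded Slc16a3 in 12 of 12 tumors, and the share of Slc16a3 was 17.8% ± 5.82 and 21.4% ± 4.45 (SD, n = 6, exact permutation p = 0.249).

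At the entry to the citric acid cycle, Pdha1, Pdhb and Dlat were steady. Pdha1 and Pdhb encode the first enzyme of pyruvate dehydrogenase and Dlat the second. Dld, a gene of the same complex outside the 32 symbols, differed by -0.15 (exact permutation p = 0.0455). Pdha1 was 58.8, 63.3 and 67.3 FPKM in control tumors and 58.8, 62.0 and 65.8 FPKM in swimming tumors. Pdhb was 28.7 to 36.6 and Dlat 16.5 to 19.7 FPKM over the 12 tumors. The differences were -0.03 (SE 0.04), -0.05 (SE 0.05) and -0.03 (SE 0.05), and their 95% intervals were -0.12 to 0.07, -0.16 to 0.06 and -0.14 to 0.08. Coefficients of variation of 4.26% for Pdha1, 5.45% for Dlat and 6.15% for Pdhb were among the lowest of the 33 rows, whereas those of the main route were 12.2% to 42.2%, or 12.2% to 29.8% without Gapdh.

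The pyruvate dehydrogenase kinases differed in level. Pdk3 was above Pdk1, and Pdk1 above Pdk2, in 12 of 12 tumors. Pdk1 was 5.25, 6.82 and 10.002 FPKM in control tumors and 7.84, 8.50 and 12.8 FPKM in swimming tumors. All 6 swimming tumors were above the control median, and control 1 and control 3 lay among them. The mean was 7.44 ± 2.004 FPKM and 9.51 ± 2.07 FPKM, with a difference of 0.33 (SE 0.16, exact permutation p = 0.0952), and the share of Pdk1 among the 4 kinases was 32.4% ± 4.69 and 37.8% ± 4.67 (SD, n = 6, exact permutation p = 0.0823). Pdk3, which resists inhibition by pyruvate, was 12.8 to 15.1 FPKM in control tumors and 13.7 to 15.1 FPKM in swimming tumors, with a difference of 0.05 (SE 0.05) and a coefficient of variation of 5.21%. Pdk2 (0.414 to 1.88 FPKM) and Pdk4 (0.0336 to 1.59 FPKM) were rare and differed by -0.09 (SE 0.16) and -0.02 (SE 0.25). Pdk4, which fasting and fat oxidation induce in muscle, varied most of the 33 rows, with a coefficient of variation of 124%. Both Pdk2 and Pdk4 were highest in control 1 and next highest in swimming 5. These 2 tumors had the highest sums of adipocyte, fibroblast and endothelial markers. Skeletal muscle markers summed to 360 FPKM in swimming 5, the highest of all, and to 49.2 FPKM in control 1. The next highest Pdk4 values were in control 6 (0.714 FPKM) and swimming 3 (0.684 FPKM), with skeletal muscle sums of 256 and 245 FPKM. The part of these tissues in the values was not tested.

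Across the 12 tumors most of the main route moved together. The median Pearson r over pairs of its 13 genes was 0.78, or 0.82 without Gapdh, compared with 0.01 over pairs of the 8152 genes with a mean of at least 5 FPKM, and 0.33 for the pyruvate dehydrogenase genes. Points share their library, and no test was made. Compared with the mean of the other route genes, r was 0.96 for Pgk1, 0.94 for Ldha, 0.94 for Aldoa and 0.91 for Gpi1, and it was 0.29 for Gapdh. Outside the route, Hk1 (0.85), Eno2 (0.84), Pdk1 (0.79) and Aldoc (0.78) followed it, whereas Pfkm (0.01), Slc16a1 (-0.03), Pfkfb4 (-0.31), Pfkfb2 (-0.36) and Pdha1 (-0.47) did not.

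A score was formed for each tumor as the mean of the centred log2(FPKM + 1) values of the route genes. It was 0.21 in control 1 and -0.30 to 0.06 in the other control tumors, and it was -0.19 in swimming 5 and 0.02 to 0.36 in the other swimming tumors. Swimming 3 and swimming 6 had the highest scores, 0.36 and 0.35, and control 2 the lowest. Over all 33 rows, the share of the summed FPKM ranged from 0.645% to 1.01%, with means of 0.732% ± 0.104 in control tumors and 0.842% ± 0.0974 in swimming tumors.

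The score went with that of 23 other genes known to be induced by HIF. Pearson's r was 0.90 and Spearman's rho 0.82 over 12 tumors, and r was 0.89 without control 1 and swimming 3, the tumors farthest from the median of the HIF score. Within the groups of 6, r was 0.88 in control and 0.93 in swimming tumors. Scores of skeletal muscle (r -0.24, rho -0.35), macrophage (r -0.23, rho -0.22), fibroblast (r 0.06, rho 0.04) and proliferation (r 0.10, rho 0.31) markers had coefficients nearer 0 over the 12 tumors. Without the 2 tumors farthest from the median of the proliferation score, its r was 0.57. Within control and swimming tumors, r was 0.59 and -0.49 for proliferation, opposite in sign, and -0.23 and -0.52 for macrophage. It was -0.35 and -0.36 for skeletal muscle and 0.39 and -0.35 for fibroblast. Because the route genes were chosen with earlier results known, these coefficients are given as descriptions without p-values.

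**Figure D5:**
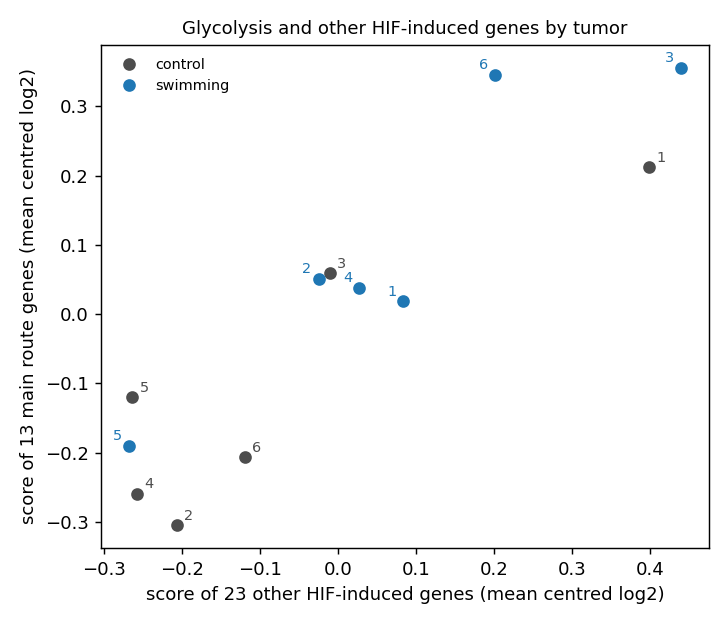
Score of the 13 main route genes against the score of 23 other HIF-induced genes, each the mean of centred log2(FPKM + 1), 1 point for each tumor, labelled by replicate number. The points rise along a line (r 0.90), with control 1 among the upper swimming tumors and swimming 5 among the lower control tumors.

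Of 8101 genes outside the pathway with a mean of at least 5 FPKM, the 9 with the highest r to the route score over the 12 tumors were Mif (0.96), Fam162a (0.96), Map2k1 (0.92), Bnip3 (0.92), P4ha1 (0.92), Ubb (0.91), Egln1 (0.91), Tnfrsf9 (0.89) and Kdm4b (0.89). Of these, 5 are in the list of HIF-induced genes. Bnip3, a mitochondrial protein that starts mitophagy, was 49.9 ± 18.5 FPKM in control tumors and 77.3 ± 19.8 FPKM in swimming tumors, with a difference of 0.65 (SE 0.23, unadjusted p = 0.0139, exact permutation p = 0.0303). In the whole HIF list, 3 of 23 genes were higher at an unadjusted p below 0.05 (Bnip3, Higd1a and P4ha1), 0 were lower, against backgrounds of 3.11% and 2.46% of all genes, and the median difference was 0.17. Higd1a, a mitochondrial protein of the hypoxia response, differed by 0.48 (exact permutation p = 0.0541) and P4ha1, a collagen prolyl hydroxylase, by 0.25 (exact permutation p = 0.0909). The transcript of HIF-1α itself, Hif1a, was 22.3 ± 2.25 and 22.5 ± 1.31 FPKM, a difference of 0.01 (SE 0.06, 95% interval -0.13 to 0.15).

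Of 11 regulators of the pathway, 1 was lower at an unadjusted p below 0.05 (background 2.46%) and 0 were higher (background 3.11%). That gene was Myc, a transcription factor that drives many glycolytic genes, with 33.7 ± 5.82 FPKM in control tumors and 26.1 ± 3.82 FPKM in swimming tumors, a difference of -0.35 (SE 0.12, unadjusted p = 0.0104, adjusted p = 0.889 in limma, exact permutation p = 0.0238). Txnip, which removes GLUT1 from the cell surface and is induced by glucose, was 86.9 ± 16.4 and 97.2 ± 20.7 FPKM (difference 0.15, SE 0.16, exact permutation p = 0.396).

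Some cell type markers differed with the groups. Of 10 T and NK cell markers, 5 were higher in the swimming group at an unadjusted p below 0.05 (background 3.11%) and 10 had a higher mean (background 51.7%), with sums of 6.87 to 16.7 FPKM in control and 10.5 to 27.4 FPKM in swimming tumors. Of 17 proliferation genes, 3 were higher (background 3.11%), with sums of 631 to 721 and 639 to 876 FPKM. Of 14 skeletal muscle markers, 0 passed and 13 had a higher mean. None of these markers was at 0 in all tumors. With the skeletal muscle score as a covariate, 4 of the 33 rows were higher at an unadjusted p below 0.05 instead of 5. The share of all genes was not counted in that fit. The part of T and NK cells and of proliferating cells in the glycolytic values was not tested beyond the correlation given for proliferation.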

How the data were processed

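The authors sequenced RNA of 12 tumors after removal of ribosomal RNA, with a library kit not stated to mark strand. The authors deposited FPKM per gene, and the submitters' processing notes name HISAT2 (2.0.5), StringTie (1.3.3), limma, hg38 and GRCm38. The identifiers are mouse Ensembl genes, and the annotation release is not given in the sources used here. Reads per gene cannot be recovered, so no counting error was computed.

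Groups and replicate numbers are those of the labels, and all 12 tumors were used. Symbols for 30542 of 30630 genes and coordinates are from GENCODE M21 (GRCm38). Genes that reached 0.1 FPKM in 6 or more tumors were fitted as log2(FPKM + 1) with lmFit and eBayes with trend (limma 3.58.1, R 4.3.3) and Benjamini-Hochberg adjustment over the 19018 genes tested. The fit was tested on simulated data. Single genes and isozyme shares were tested by exact permutation, two-sided, over the 924 divisions of the tumors, whose smallest p is 0.00216. Copies were found with BLAST 2.17.0. Python 3.11.15, pandas 2.3.3, numpy 2.4.6, scipy 1.17.1 and matplotlib 3.10.9 were also used. The genes and lists were chosen with earlier results of these data known. Values are given for each chosen gene, and from other lists for genes at an unadjusted p below 0.05 (at most 5 per list) and Hif1a, Myc and Txnip. Markers are given as sums and counts. Cs, Mdh2, Pgm1, Eno3, Hk3, Bsg and the epithelial markers were added after their values were seen. Of the 10 genes most like the route, 1 is not reported here. Alternatives were another pseudocount (0.1), other filters, quantile normalization, trimmed mean scaling, eBayes without trend, the replicate number as a block, a skeletal muscle score as a covariate and leaving out each tumor. Summing copies, and leaving out control 1 and swimming 5 together, were chosen after seeing the data.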

Additional observations from a re-analysis of the deposited data

Results flagged for a closer look

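In 68 groups of 6 tumors (each row of the pathway in each group, and the route score), a tumor far from the other 5 was sought by the gap to its nearest neighbour relative to the range of the group. It was found in 3 groups, while about 3.4 would be found by chance. Slc2a3 was 0.728 FPKM in control 1, whereas the other control tumors had 0.388 to 0.506 FPKM. Pdk2 was 1.88 FPKM in control 1, compared with 0.481 to 0.735 FPKM in the other control tumors. Slc16a1 was 44.0 FPKM in swimming 3, below the 52.4 to 56.9 FPKM of the other swimming tumors. Without control 1, the difference of Pdk2 was 0.05 on the log2 scale instead of -0.09.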

How the results depend on the processing

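The median difference of the 33 rows stayed between 0.15 and 0.22 under 10 alternatives and between 0.11 and 0.20 when single tumors were left out. The number of rows higher at an unadjusted p below 0.05 was 4 to 7 under the other alternatives and 16 without both control 1 and swimming 5, and it was 3 to 12 with a tumor left out. No row was lower or had an adjusted p below 0.05 in any of these fits, while 0 to 3 of all genes did with a tumor left out (3 without control 4 and 2 without swimming 1). With the replicate number as a block, 5 rows were higher. Beside these numbers of rows, the share of all genes was counted only in the main fit, with copies summed, and without control 1, swimming 5 or both. Under the block Pfkfb3 had an unadjusted p of 0.0564 and Pdk1 of 0.0425. Same-numbered tumors did not deviate together (mean r -0.12, range -0.32 to 0.01, against 0.02 for other pairs, and 0 of 6 swimming tumors correlated best with their own number), so the numbers do not pair the tumors. Of the 13 isozyme shares, 0 had an exact p below 0.05 under the block, 2 on the log2 scale (Aldoc and Pfkfb4) and 1 to 3 with a tumor left out. The r of the route and HIF scores was 0.91 with z-scaled genes and 0.92 with copies summed. Directions changed only for small differences. Pdk4 was 0.00511 without both tumors, Ldhb -0.0144 with quantile normalization and -0.0261 with the muscle covariate, Pfkfb4 -0.000288 with that covariate, and on the log2 scale the shares of Slc2a3 and Eno2 were -0.0564 and -0.00604. With a tumor left out, differences ranged from -0.17 to 0.046 for Pdk2, -0.18 to 0.16 for Pdk4, -0.0657 to 0.16 for Ldhb, -0.0277 to 0.0647 for Pfkfb4, -0.11 to 0.000126 for Tigar and -0.12 to 0.27 for Gapdh. In percentage points, shares ranged from -0.17 to 0.15 for Slc2a3, -0.39 to 2.89 for Pfkl, -3.04 to 0.53 for Pfkm, -0.16 to 0.65 for Pfkp, -0.40 to 0.58 for Eno2, -0.0374 to 0.0261 for Ldhb and -1.03 to 0.54 for Pdk4. The causes were not tested. Depth is unknown, so rows below 1 FPKM are the least certain. Reads of Pfkp, Tpi1, Pfkfb2, Pfkm, Gpi1 and Gapdh cannot be told apart from those of an overlapping gene on the opposite strand unless strand was used. For the row of Gapdh that gene is Iffo1 (mean 2.11 FPKM). Hk1, Slc2a1, Aldoa, Pdha1 and Tigar also overlap a gene on the opposite strand, with means of only 0.0212 to 0.336 FPKM. Pkm overlaps Gm49759 (mean 20.3 FPKM) on the same strand, so strand would not separate their reads.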

Other observations

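Genes of neighbouring pathways were compared in the same way. Of 8 pentose phosphate genes, 18 citric acid cycle genes and 9 glycogen genes, none passed an unadjusted p of 0.05 in limma in either direction (0 higher, against 3.11% of all genes, and 0 lower, against 2.46%), with median differences of 0.04, 0.01 and 0.05 on the log2 scale. The genes of the citric acid cycle had levels close to each other in both groups, such as Cs, the citrate synthase, with 47.2 and 48.9 FPKM, and Mdh2, a malate dehydrogenase, with 105 and 102 FPKM. Among the glycogen genes, Pgm1, a phosphoglucomutase, had 16.7 and 20.03 FPKM (difference 0.26, not past the threshold).

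Of 41 further genes of glycolysis and pyruvate handling, 30 could be tested, and at an unadjusted p below 0.05, 2 were lower in swimming tumors (background 2.46% of all genes) and 0 higher (3.11%), and the median difference was 0.00. Adpgk, an ADP-dependent glucokinase, was 6.31 ± 0.767 FPKM in control tumors and 5.49 ± 0.268 FPKM in swimming tumors (difference -0.17, two-sided exact permutation p = 0.0108). Dld, the dehydrogenase shared by pyruvate dehydrogenase and related complexes, was 39.2 ± 4.17 and 35.1 ± 1.96 FPKM (difference -0.15, exact permutation p = 0.0455). Neither had an adjusted p below 0.05. Eno3, the muscle enolase, was 66.8 FPKM in control tumors and 65.9 FPKM in swimming tumors, above Eno2 in its mean. Hk3, a hexokinase of myeloid cells, was 6.996 and 10.1 FPKM (difference 0.46, not past the threshold). Bsg, the partner protein that carries the lactate transporters to the membrane, was 192 and 191 FPKM.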
